A study of Danio rerio with 16 samples.

Results

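The comparison described here is that of liver miRNA in female zebrafish that were fed and exposed to fluoxetine (Fed/FLX) with that in fed fish held in clean water (Fed). Its members are the 4 arrays labelled Fed/FLX and the 4 labelled Fed, 8 of the 16 arrays of the series, and all 248 miRNAs on the array were tested. Fluoxetine (FLX) is a selective serotonin reuptake inhibitor, and was added to the water at 540 ng/L for 7 days, while Fed fish received 0 ng/L for the same time. All fish were adult females, and each of the 4 samples in a group pooled 2 livers. The fish were bought from a supplier with no strain given. Each group was kept in 1 tank, so that FLX exposure and the tank cannot be told apart, and a p-value here measures the spread between pools of livers from the same tank. The other 8 arrays were of fish without food for the same time, held without FLX (Fasted) or with it (Fasted/FLX), and enter the results below only in the estimate of the spread and where a difference between fed and fasted fish was tested.

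A miRNA is a short RNA that guides the Argonaute protein to messenger RNAs with matching sites and lowers their stability or translation. Pairing depends mostly on the seed, a short stretch near the start of the miRNA, so that miRNAs with 1 seed form a family with overlapping targets. In the liver of vertebrates the hepatocytes hold very large amounts of miR-122, and other miRNAs mark bile ducts, vessels and blood. Fluoxetine blocks the serotonin transporter, and FLX in the water is known to act on feeding and metabolism in fish.

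The values are RMA values, which are log2 intensities. They were made from the background-corrected spots by giving all 16 arrays the same distribution of intensities (quantile normalization) and combining the 60 spots of each miRNA by median polish. A difference of 1 on this scale is 2-fold. Detection was judged from the scanner software's mark for a spot well above background, which 50% or more of the usable spots of a miRNA had to carry. Between 64 and 77 miRNAs were detected on the Fed arrays (71.0 ± 5.35, SD, n = 4) and between 65 and 87 on the Fed/FLX arrays (76.8 ± 10.5, n = 4). The difference of 5.75 miRNAs was smaller than the SD of the Fed/FLX arrays. The difference of the group means did not pass a two-sided exact permutation test (p = 0.4). The 75th percentile of the spot signal was taken over the 49 miRNAs detected on all 16 arrays. It lay between 292 and 356 on the Fed arrays, at 463 and 404 on Fed/FLX replicates 2 and 3, and at 271 and 278 on Fed/FLX replicates 1 and 4. By this measure the Fed/FLX arrays were 2 brighter and 2 dimmer ones than the Fed arrays before normalization. The arrays lay on 2 slides, each with 2 arrays of Fed and 2 of Fed/FLX. Slide columns 1 and 3 held every Fed array, and columns 2 and 4 every Fed/FLX array, so that slide column and FLX exposure cannot be told apart. The label of the tissue was checked by miR-122, the main hepatocyte miRNA, which was detected on all 8 arrays with RMA values between 11.92 and 12.14 in Fed and between 11.54 and 12.33 in Fed/FLX. A table of processed values deposited beside the scans assigns them to the groups in another way. Of its 8 columns headed Fed or Fed/FLX, 1 holds the scan of its own sample and 2 hold a scan of the group in the heading. Which assignment is right could not be settled from the files, so the group names and the direction of every difference given here rest on the sample that each scan was deposited under.

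In Fed/FLX, 22 miRNAs were higher and 10 were lower than in Fed, and nearly all of these changes were under 2-fold. The higher ones included 6 of the 10 members of the let-7 family, miR-25, miR-100 and miR-125b. The lower ones included miR-205, miR-19a-3p, the hepatocyte miRNA miR-192 and members of the miR-29 and miR-30 families. Only miR-205 passed 2-fold. In numbers, limma called 32 of 248 miRNAs (12.9%) at a Benjamini-Hochberg adjusted p under 0.05, with 22 higher (8.87%) and 10 lower (4.03%). With a minimum of 2-fold as well it called 1 (0.403%). The absolute log2 differences of the 32 ran from 0.21 upwards, and the median log2 difference over all 248 was 0.0058. Values of the groups did not overlap for 24 of the 32 called miRNAs and for 30 of all 248 (12.1%), of which 21 were higher (8.47%) and 9 lower (3.63%). All 32 had the same sign of difference on both slides, and in all 32 the 2 or 3 probes of the miRNA had the same sign. Because the 32 were called on these same arrays and probes, this agreement is no separate evidence for them. The number called was 17 without Fed/FLX replicate 1, 17 without Fed/FLX replicate 3, 16 without Fed replicate 2, 19 without Fed replicate 3 and 12 without Fed replicate 4, and it was 6 to 18 under other normalizations and 2 with only the Fed and Fed/FLX arrays in the fit. The number past 2-fold as well was 0 to 5 over the other settings, with 0 both in that fit and where the 8 arrays were normalized alone, 3 and 5 with spots scaled by a 75th percentile and 4 without background correction.

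**Figure D1:**
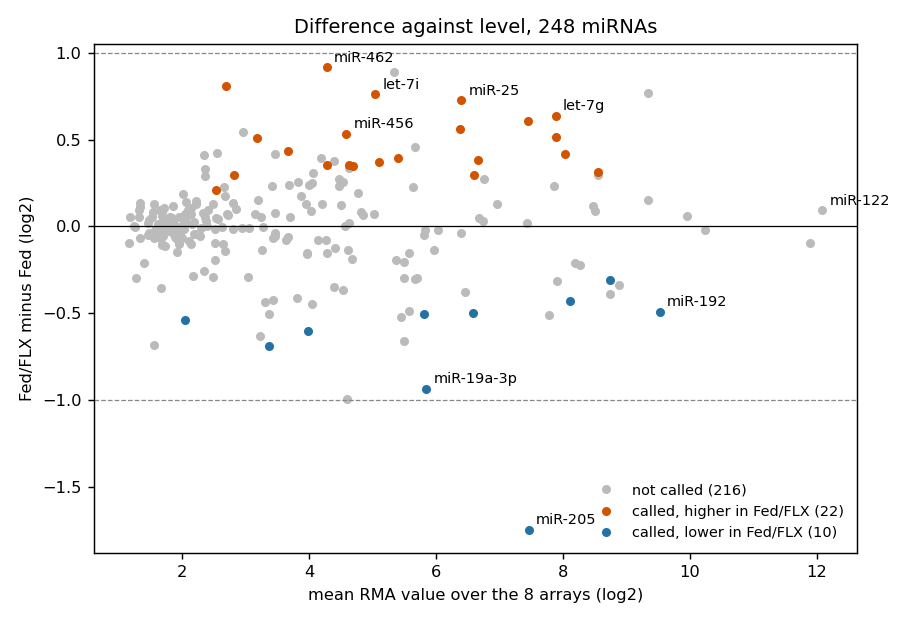
Each point is 1 of 248 miRNAs, with its mean RMA value over the 8 arrays (log2) on the x axis and Fed/FLX minus Fed (log2) on the y axis; orange and blue points are the 22 higher and 10 lower miRNAs called by limma, and the dashed lines mark 2-fold. Only miR-205 among the called miRNAs lies beyond a dashed line, and miR-122 lies close to 0 at 0.09.

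Of the 32 called miRNAs, 19 were detected on all 4 arrays of at least 1 of the 2 groups, out of 63 miRNAs detected in that way (30.2%). Of these 19, 12 were higher and 7 were lower in Fed/FLX. The remaining 13 were nearer to background, with 10 higher and 3 lower, and are given apart. Fed/FLX replicate 1 was the Fed/FLX array farthest from the Fed mean for 20 of the 32 called miRNAs, against 92 of all 248, and replicate 2 the nearest for 21. Replicate 1 was the lowest Fed/FLX array for 9 of the 10 lower miRNAs and the highest for 11 of the 22 higher ones. Hereafter the values of the 4 arrays of a group are given in the order of their replicate numbers. Statements on overlap refer to the normalized values unless the spot signal is named.

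**Figure D2:**
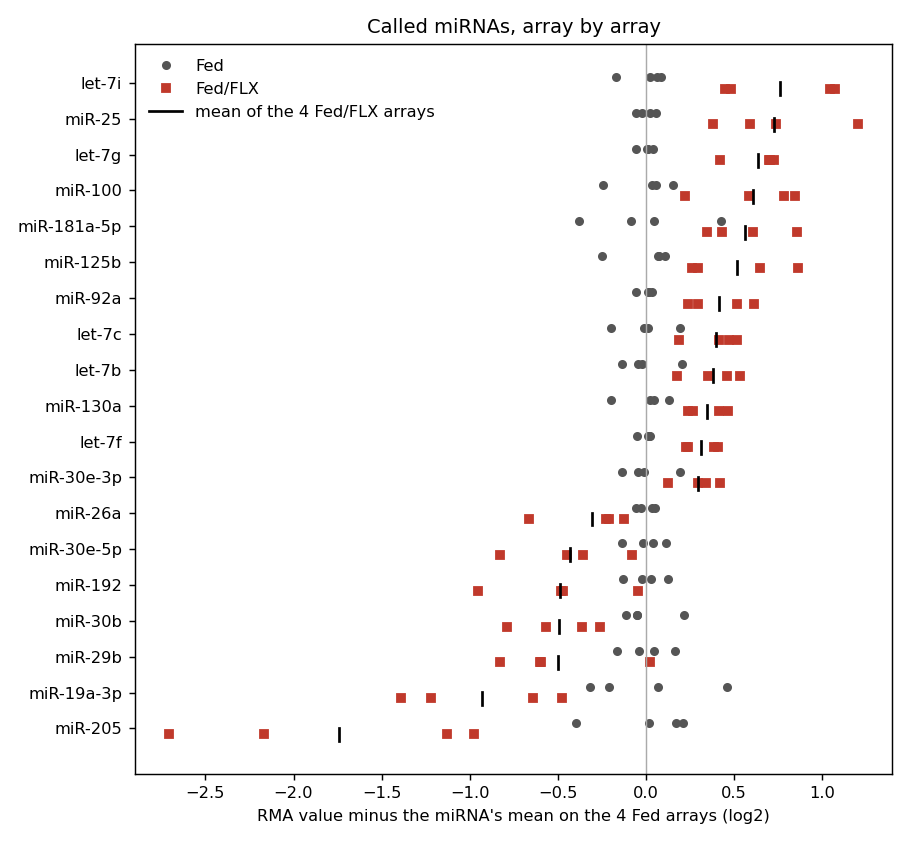
The x axis gives, for each of the 19 called miRNAs with full detection in at least 1 group, the RMA value of each array minus the mean of the 4 Fed arrays (log2), with grey circles for Fed, red squares for Fed/FLX and a black bar for the Fed/FLX mean. The squares of miR-205 lie farthest from 0, with a mean of -1.74.

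Of the lists examined, the let-7 family had the most called members, with 6 of 10 higher and 0 lower in Fed/FLX, against 8.87% higher over all miRNAs. Of the 10 members 9 were detected on any of the 8 arrays. Among the 63 miRNAs detected on all 4 arrays of at least 1 of the 2 groups, 12 were called higher. The let-7 miRNAs are conserved from worm to human, rise as cells differentiate, and in mouse restrain insulin signalling. The median log2 difference over the 10 let-7 members was 0.35. The 6 calls became 4 with spots scaled by the 75th percentile of the detected miRNAs, 3 with that of all miRNA spots and 3 on the 8 arrays alone. They became 2 without quantile normalization, 2 on total gene signals and 1 with only the Fed and Fed/FLX arrays in the fit. With an array left out 4 to 6 members were called. The RMA value of let-7g was 7.61, 7.58, 7.51 and 7.58 in Fed and 8.30, 7.99, 8.27 and 8.27 in Fed/FLX. Every Fed/FLX array was above every Fed array, by more than the whole range of the Fed arrays. The difference was 0.64 (SE 0.10, limma adjusted p = 0.00244), or 1.56-fold, and it was called with every array left out in turn and in each of 15 other settings. Before normalization the median spot signal of let-7g was 141, 135, 181 and 168 in Fed and 198, 265, 356 and 215 in Fed/FLX, so that the groups were also apart in the raw intensities.

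On the same scale let-7i was 4.75, 4.50, 4.69 and 4.73 in Fed and 5.71, 5.15, 5.11 and 5.74 in Fed/FLX. The groups did not overlap, and the miRNA was detected on 3 Fed and on 4 Fed/FLX arrays. It was 1.69-fold higher in Fed/FLX (log2 0.76, SE 0.17, limma adjusted p = 0.00955). In let-7f the values were 8.40, 8.34, 8.41 and 8.41 in Fed and 8.62, 8.63, 8.78 and 8.80 in Fed/FLX, again without overlap. The difference was 0.31 (adjusted p = 0.0213), and it lost the call without Fed replicate 2, Fed replicate 4 or Fed/FLX replicate 3 (adjusted p up to 0.066).

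For let-7c the values were 5.19, 5.0, 5.39 and 5.21 in Fed and 5.61, 5.39, 5.71 and 5.67 in Fed/FLX, so that the lowest Fed/FLX array met the highest Fed array. For let-7b they were 6.42, 6.33, 6.67 and 6.44 in Fed and 6.82, 6.64, 7.00 and 6.92 in Fed/FLX, with 1 Fed array inside the Fed/FLX range. Both were called, with differences of 0.40 (limma adjusted p = 0.00955) for let-7c and 0.38 (adjusted p = 0.0286) for let-7b. The call of let-7b was lost without Fed replicate 1, 2 or 4 or without Fed/FLX replicate 1 or 3 (adjusted p up to 0.09), and that of let-7c with no array left out. The sixth called member, let-7d, was not detected on any of the 8 arrays, so no fold is given. Its values near background were 3.57, 3.39, 3.52 and 3.32 in Fed and 3.86, 3.77, 3.88 and 4.02 in Fed/FLX, and the difference of 0.43 was called (adjusted p = 0.00955).

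The other 4 members did not pass the test. For let-7a, detected on all arrays, the difference was -0.02 with a 95% confidence interval from -0.23 to 0.19. For let-7e it was 0.13 (-0.08 to 0.34), for let-7h 0.19 (-0.09 to 0.48) and for let-7j -0.16 (-0.47 to 0.16). Between 8 and 10 of the 10 members were positive in every other setting in which all 10 were tested, where the family's median ran from 0.14 to 0.40. With spots scaled by the 75th percentile of the detected miRNAs all 10 were positive, and so they were with RMA values without Fed/FLX replicate 1. The signs of let-7a and let-7j thus depend on the scaling and on that array. The members of the family differ at few bases, and whether a probe also bound other members was not tested.

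**Figure D3:**
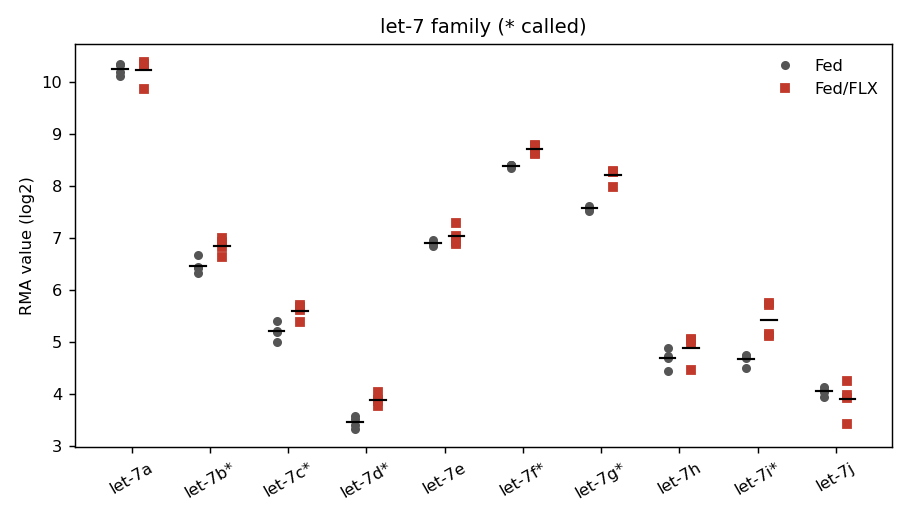
RMA values (log2, y axis) of the 10 let-7 members on the 4 Fed arrays (grey circles) and 4 Fed/FLX arrays (red squares), with black bars for the group means and an asterisk for the 6 called members. The squares of let-7f, let-7g, let-7i and let-7d lie wholly above the circles, while let-7a, let-7e, let-7h and let-7j overlap.

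Among the other higher miRNAs, miR-25 and miR-92a share a seed and belong to the clusters named after miR-17 and miR-92, which in mammals promote cell growth. The RMA value of miR-25 was 6.01, 6.09, 6.06 and 5.98 in Fed and 7.24, 6.41, 6.62 and 6.77 in Fed/FLX. The lowest Fed/FLX array was above all Fed arrays, and Fed/FLX replicate 1 was the highest. The difference of 0.73 (SE 0.13, limma adjusted p = 0.00674), or 1.66-fold, was called with every array left out. The median spot signal of miR-25 was between 46.9 and 56.5 in Fed and between 83.4 and 105 in Fed/FLX, without overlap. For miR-92a the RMA value was 7.85, 7.83, 7.76 and 7.84 in Fed and 8.43, 8.06, 8.11 and 8.34 in Fed/FLX. The groups were apart here too, with a difference of 0.42 (adjusted p = 0.00955), or 1.33-fold.

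The other called members of these clusters were lower in Fed/FLX. They were miR-19a-3p and miR-19c. The RMA value of miR-19a-3p was 6.00, 6.38, 6.10 and 6.77 in Fed and 4.92, 5.67, 5.84 and 5.09 in Fed/FLX. No Fed/FLX array reached the lowest Fed array. Expression fell by 0.93 on the log2 scale (SE 0.25, limma adjusted p = 0.0273), a 1.91-fold difference, and the call was lost without Fed replicate 2, Fed replicate 4 or Fed/FLX replicate 1 (adjusted p up to 0.087). In the raw intensities the groups overlapped, since the median spot signal was 50.1, 51.5, 55.8 and 82.6 in Fed and 19.1, 46.6, 60.2 and 18.3 in Fed/FLX. Of the 20 measured members of these clusters 2 were called higher and 2 lower, against 8.87% and 4.03% over all miRNAs, and 16 were not called, with a list median of -0.02. In RefSeq the genes of miR-19a and miR-92a lie within 10 kb of each other, and the difference was negative for the first and positive for the second.

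The genes of miR-100 and miR-125b also lie within 10 kb of each other, as do those of let-7c and miR-99, in arrangements of miR-100, let-7 and miR-125 genes that are shared by most animals. Of these, miR-100, miR-125b, let-7c and miR-99 were called higher in Fed/FLX. Other miRNAs with genes in the same stretches did not pass the test. Among them were let-7a, near miR-100 and miR-125b, at -0.02, and miR-125c, near let-7c and miR-99, at 0.13 (limma adjusted p = 0.611, detected on none of the 8 arrays). The RMA value of miR-100 was 7.31, 6.91, 7.18 and 7.21 in Fed and 7.99, 7.73, 7.93 and 7.37 in Fed/FLX. The difference of 0.61 (SE 0.13, limma adjusted p = 0.00955), or 1.52-fold, came from groups that did not overlap, although Fed/FLX replicate 4 was close to the highest Fed array. The median spot signal of miR-100 did overlap, at 142, 79.5, 140 and 93.7 in Fed and 147, 218, 284 and 113 in Fed/FLX. In miR-125b the RMA value was 7.71, 7.39, 7.75 and 7.71 in Fed and 8.50, 7.93, 8.28 and 7.90 in Fed/FLX, also without overlap. The difference was 0.52 (adjusted p = 0.0286), and it lost the call without Fed replicate 2 or 4 or Fed/FLX replicate 1 or 3 (adjusted p up to 0.09). In mammals miR-99 and miR-100 repress the growth kinase gene mTOR. The value of miR-99 was called at 0.35 (limma adjusted p = 0.0437), but it was detected on 3 Fed arrays and 1 Fed/FLX array. Its call was lost in 5 of the 8 fits with 1 array left out (adjusted p up to 0.136) and in 8 of 15 other settings. The median spot signal of miR-99 overlapped, at 18.5, 9.13, 23.5 and 14.5 in Fed and 9.99, 11.5, 24.6 and 7.05 in Fed/FLX. These were 2 of the 3 pairs of neighbouring genes with both miRNAs called.

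In miR-181a-5p, known from mammals for its part in T cell signalling, the RMA value was 6.52, 6.14, 6.00 and 5.71 in Fed and 6.95, 6.44, 6.70 and 6.52 in Fed/FLX. Fed replicate 1 overlapped the Fed/FLX range. The difference was 0.56 (SE 0.15, limma adjusted p = 0.0299), or 1.47-fold, and the call was lost without Fed replicate 2, 3 or 4 or Fed/FLX replicate 1 or 3 (adjusted p up to 0.09). The value of miR-130a, which in mammals represses the adipocyte regulator PPARG, was 4.32, 4.54, 4.65 and 4.56 in Fed and 4.98, 4.75, 4.78 and 4.93 in Fed/FLX. The groups did not overlap, with 2 Fed and 4 Fed/FLX arrays on which it was detected, and the difference was 0.35 (adjusted p = 0.00955).

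The largest decrease was that of miR-205, an epithelial miRNA that in mammals holds back the transition of epithelial to mesenchymal cells. Its RMA value was 8.35, 8.51, 7.94 and 8.55 in Fed and 5.63, 7.21, 7.36 and 6.17 in Fed/FLX. The highest Fed/FLX array was below the lowest Fed array, and Fed/FLX replicates 1 and 4 lay below replicates 2 and 3. Expression fell by 1.74 (SE 0.34, limma adjusted p = 0.00759), a 3.35-fold difference with a 95% confidence interval from -2.48 to -1.01 on the log2 scale. The difference was -2.01 on slide 1 and -1.48 on slide 2. The 2 probes gave -1.75 and -1.72. The median spot signal before normalization was 271, 272, 232 and 341 in Fed and 31.2, 149, 150 and 49.8 in Fed/FLX, so that the groups were apart in the raw intensities as well. The call was kept with every array left out and in 13 of 15 other settings, and lost where the normalization or the fit was limited to the 8 arrays.

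The epithelial and duct list, with 10 miRNAs measured, held no other called member. Its largest other difference on a detected miRNA was -0.21 for miR-200a (limma adjusted p = 0.441), and miR-200b was at 0.07 and miR-429a at -0.19. The summed total gene signal of the list, which is the scanner software's sum for each miRNA brought to the same 75th percentile on every array, was 1459 to 2138 on the Fed arrays and 499 to 1118 on the Fed/FLX arrays. This sum mostly follows miR-205, whose median spot signal in Fed was 232 to 341, against 20.8 to 44.8 for miR-200a. In this list miR-205 moved and the miR-200 family, the defining miRNAs of epithelia, did not pass the test. In bulk liver fewer cells of a type and less RNA per cell cannot be told apart.

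Of the hepatocyte miRNAs, miR-192 was lower in Fed/FLX. It is abundant in liver and gut, and shares a transcript with miR-194. Its RMA value was 9.64, 9.89, 9.75 and 9.80 in Fed and 8.82, 9.72, 9.30 and 9.29 in Fed/FLX. Only Fed/FLX replicate 2 reached into the Fed range. Expression fell by 0.49 (SE 0.14, limma adjusted p = 0.0382), a 1.40-fold difference, and the call was lost without Fed replicate 2, 3 or 4 or Fed/FLX replicate 1 or 3 (adjusted p up to 0.096). Its neighbour miR-194a was at -0.51 and did not pass the test (adjusted p = 0.0654).

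Of the 10 liver-enriched miRNAs 0 were called higher and 2 lower, against 8.87% and 4.03% over all miRNAs, and the median of the list was -0.34. As 9 of the 10 were detected on any of the 8 arrays, detected miRNAs are the closer base. Of the 63 miRNAs detected on all 4 arrays of at least 1 of the 2 groups, 12 were called higher and 7 lower. The second lower miRNA of the list was miR-152, which was detected on 1 Fed and 0 Fed/FLX arrays. The group included miR-101a at -0.38 (limma adjusted p = 0.229), miR-148 at -0.52 (adjusted p = 0.188) and miR-21 at -0.22 (adjusted p = 0.782). The main hepatocyte miRNA, miR-122, differed by 0.09 (95% confidence interval -0.21 to 0.40, limma adjusted p = 0.798). In the RMA values Fed/FLX replicate 1 was the lowest of the 8 arrays and the other Fed/FLX arrays were the highest. Quantile normalization gives all arrays the same top intensities, which limits what these values can show for so bright a miRNA. Before it, the median spot signal was 2921, 3563, 4897 and 3016 in Fed and 3899, 6483, 5749 and 4075 in Fed/FLX. There Fed/FLX replicate 1 was not the lowest array.

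The miR-30 family, which zebrafish embryos need to form bile ducts, had members that moved in both directions. For miR-30b the RMA value was 6.78, 6.79, 6.72 and 7.05 in Fed and 6.05, 6.57, 6.47 and 6.27 in Fed/FLX, without overlap. Expression fell by 0.50 (SE 0.13, limma adjusted p = 0.0213), with the call lost without Fed replicate 4 or Fed/FLX replicate 1 (adjusted p up to 0.077). The arms of the precursor of miR-30e were called in opposite directions. The 5p arm, which holds the family's seed, was 8.18, 8.30, 8.36 and 8.44 in Fed and 7.49, 8.24, 7.87 and 7.96 in Fed/FLX, a difference of -0.43 (adjusted p = 0.0437). The 3p arm was 6.41, 6.45, 6.65 and 6.32 in Fed and 6.80, 6.75, 6.58 and 6.87 in Fed/FLX, a difference of 0.29 (adjusted p = 0.0432). In both arms 1 Fed/FLX array lay within the Fed range, replicate 2 for the 5p arm and replicate 3 for the 3p arm. The 5p arm lost its call in 5 of the 8 fits with 1 array left out (adjusted p up to 0.102) and the 3p arm in 6 (adjusted p up to 0.102). In the 15 other settings the 3p arm lost its call in 11, with the slide as a block (adjusted p = 0.0528) and the replicate number as a block (adjusted p = 0.0588) among them. The other members miR-30c and miR-30d, detected on all arrays, were at 0.09 and -0.02.

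The miR-29 family represses collagen genes in mammals, and both of its measured members were lower on average in Fed/FLX. For miR-29b the RMA value was 6.03, 6.23, 6.11 and 5.90 in Fed and 5.24, 6.09, 5.47 and 5.46 in Fed/FLX. Fed/FLX replicate 2 lay within the Fed range, and the miRNA was detected on 4 Fed arrays and 1 Fed/FLX array. The difference was -0.50 (SE 0.15, limma adjusted p = 0.0432), a call lost in 7 of the 8 fits with 1 array left out, all but that without Fed/FLX replicate 2 (adjusted p up to 0.117). It was lost in 6 of the 15 other settings too, with the slide as a block (adjusted p = 0.0528) and with a variance trend (adjusted p = 0.0538) among them. For miR-29a the difference was -0.32 (adjusted p = 0.131).

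The seventh lower miRNA of the 19 was miR-26a, which in mouse liver slows the cell cycle. Its RMA value was 8.84, 8.87, 8.95 and 8.93 in Fed and 8.23, 8.77, 8.69 and 8.67 in Fed/FLX, without overlap. Its median spot signal did overlap, at 503, 348, 603 and 409 in Fed and 216, 649, 419 and 394 in Fed/FLX. Expression fell by 0.31 (limma adjusted p = 0.0492), with the call lost in 6 of the 8 fits with 1 array left out (adjusted p up to 0.118).

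Of the 13 called miRNAs nearer to background, miR-456 had the lowest adjusted p of all 248. Its RMA value was 4.34, 4.25, 4.31 and 4.37 in Fed and 4.88, 4.89, 4.75 and 4.88 in Fed/FLX, and it was detected on 3 arrays of each group. The gap between the groups was wider than the range of either. The difference was 0.53 (SE 0.067, limma adjusted p = 2.91e-04), or 1.45-fold, and it was called with every array left out and in each of 15 other settings. The name miR-456 is given here after its values were seen. Its median spot signal was 17.1, 10.2, 12.2 and 16.9 in Fed and 17.3, 27.2, 23.6 and 13.9 in Fed/FLX, which overlap, so that the separation is that of the normalized values.

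By fitted difference the first 3 of the higher miRNAs among these 13 were miR-462, miR-2188-3p and miR-456. For miR-462, a fish miRNA that responds to hypoxia in zebrafish, the RMA value was 3.85, 3.33, 3.83 and 4.29 in Fed and 5.08, 5.27, 4.82 and 3.80 in Fed/FLX. Fed/FLX replicate 4 lay within the Fed range, and the miRNA was detected on 0 Fed and 2 Fed/FLX arrays. In Fed/FLX its mean level was at least about 1.45-fold higher (difference 0.92 on the log2 scale, limma adjusted p = 0.0498). This bound was taken on each Fed array against the higher of its own value and that of the dimmest detected miRNA. The Fed/FLX mean in it includes arrays on which miR-462 was not detected, so that the bound is approximate. The difference was 1.58 on slide 1 and 0.25 on slide 2, and the call was lost in each of the 14 other settings in which the miRNA was tested and in 7 of the 8 fits with 1 array left out (adjusted p up to 0.154). The partner of miR-462, miR-731, was not detected and was at -0.10.

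For miR-2188-3p, detected on none of the 8 arrays, both groups were below the background mark, so that the difference of 0.81 (limma adjusted p = 0.0483) is one between values near background and no fold is given. The 5p arm of the same precursor was detected on 3 arrays of each group and was at 0.89 with groups that did not overlap, but did not pass the test (adjusted p = 0.112). Its RMA value was 4.93, 5.19, 4.30 and 5.17 in Fed and 6.99, 5.24, 5.58 and 5.32 in Fed/FLX, with Fed/FLX replicate 1 far above the rest. The call of the 3p arm was lost in 6 of the 8 fits with 1 array left out (adjusted p up to 0.138).

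The 3 decreases among these 13 were those of miR-152, miR-19c and miR-430a. In miR-152 the RMA value was 3.65, 3.70, 3.71 and 3.78 in Fed and 2.37, 3.47, 2.95 and 3.29 in Fed/FLX (difference -0.69, limma adjusted p = 0.0315). That of miR-19c was 4.07, 4.23, 4.52 and 4.35 in Fed and 3.52, 4.04, 3.86 and 3.33 in Fed/FLX (difference -0.60, adjusted p = 0.0213). In both the groups did not overlap, and both were close to background, with miR-19c detected on 0 Fed arrays and 1 Fed/FLX array. For miR-430a, known in zebrafish for clearing maternal messenger RNA from the embryo, the values were 2.32 ± 0.17 in Fed and 1.79 ± 0.21 in Fed/FLX (SD, n = 4, adjusted p = 0.00759). It was detected on none of the 16 arrays. The remaining called miRNAs of this kind were miR-16c (0.37), miR-221 (0.36, at least 1.25-fold), miR-130b (0.51), miR-128 (0.30) and miR-10a-5p (0.21), with let-7d and miR-99 given above, and all of these were higher in Fed/FLX. Of these, miR-130b, miR-128 and miR-10a-5p were detected on none of the 8 arrays.

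FLX acts on the serotonin transporter, whose messenger RNA is bound in mouse by miR-16 and miR-135. These were described together with the miR-15 miRNAs, which are related to miR-16 by their seed. The list was made by name and so also holds miR-15a-3p, the opposite arm, which is not related in this way. Of 10 measured, 4 were detected on any of the 8 arrays. Of the 10, 1 was higher and 0 lower, against 8.87% and 4.03% over all miRNAs, and the list median was 0.05. The called member was miR-16c, at 4.91, 5.06, 4.90 and 4.82 in Fed and 5.40, 5.29, 5.29 and 5.17 in Fed/FLX. The groups did not overlap, and the difference was 0.37 (SE 0.082, limma adjusted p = 0.00955). It was called with every array left out. Its relative miR-16b, detected on all 8 arrays, was at 0.03 (adjusted p = 0.962), and the 3 miR-135 miRNAs were not detected.

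The insulin and lipid list held 13 miRNAs, from families with members known in mammals to act on such genes. Only 5 of the 13 were detected on any of the 8 arrays. Among the 13 limma called 0, against 12.9% of all miRNAs. It also counted 0 at an unadjusted p under 0.05, against 58 of all 248. The list median was 0.05, but most members were near background, where a change could be missed. In mouse, miR-103 and miR-107 lower insulin sensitivity. The difference of miR-103, the largest on a detected member, was 0.27 (adjusted p = 0.241), and it was detected on 0 Fed and 2 Fed/FLX arrays. That of miR-107a, detected on all 8 arrays, was also 0.27 (adjusted p = 0.379). In the clusters of miR-23, miR-24 and miR-27 limma likewise called 0 of 9, with 0 at an unadjusted p under 0.05. Of these 9, 4 were detected on any of the 8 arrays. The median there was 0.03, and miR-23b, detected on all 8 arrays, was at -0.15. The methods' test also called 0 in both lists.

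The text and supplement of the study name 12 miRNAs, chosen there on these same samples. Of these 12, 4 were called, against 12.9% of all miRNAs, with let-7d and let-7i higher and miR-205 and miR-19a-3p lower in Fed/FLX. The study kept changes of 2-fold or more, while these calls have no minimum fold. With that minimum only miR-205 remained. All 4 are among the 10 that its supplement lists for fed fish with FLX, which leaves out miR-103 and miR-210-5p. The study's primers for its qPCR of up-regulated miRNAs do include miR-210-5p. The remaining 8 of the 12 did not pass the test. They were miR-22b (0.31, limma adjusted p = 0.0744), miR-103, miR-140-5p (0.24, adjusted p = 0.443), miR-181c (0.24, adjusted p = 0.135), miR-210-5p (0.23, adjusted p = 0.463), miR-457b (0.08, adjusted p = 0.655), miR-301a (-0.00024, adjusted p = 0.999) and miR-193a (-0.50, adjusted p = 0.0841). Of these 8, miR-140-5p, miR-181c, miR-193a, miR-210-5p, miR-301a and miR-457b were detected on none of the 8 arrays. The study lists miR-22b, miR-140-5p, miR-181c, miR-193a, miR-301a and miR-457b as up-regulated in fed fish with FLX. Here miR-193a differed in the opposite direction, and miR-301a was at -0.00024. The 4 called miRNAs had the direction given there. Whether the study's lists rest on the assignment of scans to groups used here is not known, so these directions may compare different arrays. Its qPCR of up-regulated miRNAs, which correlated strongly with its arrays, has no counterpart here.

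Markers of other cell types were read as lists. Of all miRNAs limma called 12.9%, so that 0 calls in lists this short say little about a cell type. Of the 10 blood and immune miRNAs limma called 0, with 1 at an unadjusted p under 0.05, and the median was -0.16. With detected miRNAs only, with the replicate number as a block or without Fed/FLX replicate 4, 1 member was called higher. The red cell miRNA miR-451 was 9.41, 9.06, 8.13 and 9.22 in Fed and 10.36, 9.48, 9.85 and 9.21 in Fed/FLX. The groups overlapped, and the difference of 0.77 did not pass the test (limma adjusted p = 0.0868). Its neighbour in the genome, miR-144, which is also known from red cells, was 5.75, 6.14, 5.0 and 6.40 in Fed and 6.66, 5.11, 5.96 and 4.36 in Fed/FLX. The groups overlapped here as well, and the difference was -0.30 (adjusted p = 0.798). The largest difference in this list among detected miRNAs after it was -0.66 for miR-146a (adjusted p = 0.537). The summed total gene signal of the list was 2482 to 3816 in Fed and 2534 to 9027 in Fed/FLX, and its part in the results above was not tested.

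For the endothelial miR-126 list limma called 0 of 3, with 1 at an unadjusted p under 0.05, and miR-126b-3p was at -0.05. The differences ran from -0.35 to 0.02, and 2 of the 3 were detected on any of the 8 arrays. With spots scaled by the 75th percentile of all miRNA spots, without background correction or with detected miRNAs only, 1 member was called lower. The same count was found without Fed replicate 1 or Fed/FLX replicate 2 or 4. Of the 5 mesenchymal miRNAs limma called 0, with 2 at an unadjusted p under 0.05, and miR-214 was at 0.34 (adjusted p = 0.091). With detected miRNAs only or without Fed replicate 2, 1 mesenchymal member was called higher, and without Fed/FLX replicate 2 it was 2 members. Pancreas markers, which can enter a dissected liver, gave 0 of 6, also without adjustment, and 3 of the 6 were detected on any of the 8 arrays. Of these miR-216a was at -0.49 (adjusted p = 0.394), and the summed total gene signal was 169 to 493 in Fed and 54.1 to 429 in Fed/FLX. Of the 8 striated muscle miRNAs limma called 0, also without adjustment, but only 2 of them were detected on any of the 8 arrays. Of these miR-499 was at -0.63 (adjusted p = 0.529), detected on 1 array of each group. The methods' test called 0 in each of these lists. The 6 neural miRNAs and the 2 ovary miRNAs were detected on none of the 8 arrays.

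Whether the FLX difference in fed fish departs from that in fasted fish was tested by the interaction, the difference between Fed/FLX and Fed minus that between Fasted/FLX and Fasted. The test called 4 of 248 (1.61%), all of them members of the miR-181 and miR-29 families, and 32 at an unadjusted p under 0.05. The miR-181 miRNAs were higher with FLX in fed fish and lower with FLX in fasted fish. For miR-181a-5p the difference was 0.56 in fed and -0.67 in fasted fish, an interaction of 1.23 (SE 0.22, limma adjusted p = 0.00607). For miR-181c it was 0.24 and -0.67, an interaction of 0.91 (adjusted p = 0.00274), but this miRNA was detected on none of the 16 arrays. The miR-29 miRNAs were the other way round. For miR-29b the difference was -0.50 in fed and 0.54 in fasted fish (interaction -1.04, adjusted p = 0.0175), and for miR-29a -0.32 and 0.54 (interaction -0.86, adjusted p = 0.0192). The fed difference alone passed the test for miR-181a-5p and miR-29b and not for the other two. Without quantile normalization limma called 0 interactions, with 31 at an unadjusted p under 0.05.

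**Figure D4:**
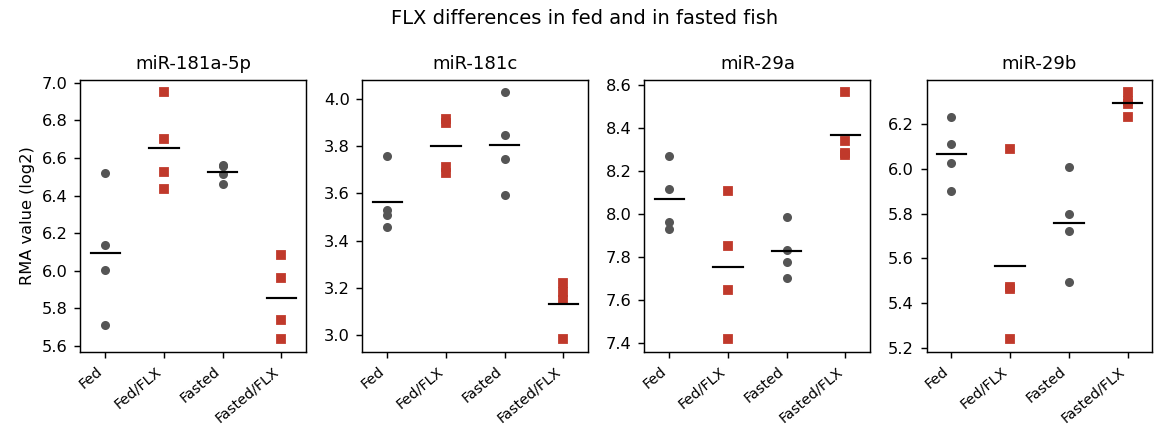
RMA values (log2, y axes with a range of their own for each miRNA) of the 4 miRNAs called in the interaction, with 1 point per array in Fed, Fed/FLX, Fasted and Fasted/FLX and black bars for the group means. In the fed pair the miR-181 bars rise and the miR-29 bars fall with FLX, and in the fasted pair the reverse.

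In fasted fish FLX called 16 of 248 (6.45%). The 2 comparisons share no array, but share the normalization and the slide columns of the FLX arrays. Of the 32 miRNAs called in fed fish, 26 had the same sign in fasted fish (19 of the 22 higher, 7 of the 10 lower), against 142 of all 248. Called in the same direction were 7, namely let-7i, miR-26a, miR-30b, miR-30e-3p, miR-456, miR-99 and miR-19c. The difference of miR-456 was 0.48 in fasted fish (limma adjusted p = 8.5e-04) against 0.53 in fed fish. In the opposite direction were called miR-29b and miR-181a-5p. For miR-205 the difference in fasted fish was -0.46 (adjusted p = 0.573), and the interaction of -1.28 did not pass the test (adjusted p = 0.27). That of let-7g was 0.22 in fasted fish (adjusted p = 0.297), with an interaction of 0.42 (adjusted p = 0.229).

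How far the 32 calls rest on the way the arrays were normalized is shown by the count in each setting. When spots were scaled instead by each array's 75th percentile among detected miRNAs, limma called 18, of which 9 were higher and 9 lower, and with the percentile over all miRNA spots 18, of which 8 were higher and 10 lower, where RMA gave 22 and 10. Without quantile normalization it called 6 (4 higher, 2 lower), and there the median of all miRNAs was -0.11. With only the Fed and Fed/FLX arrays in the fit it called 2, which were let-7g and miR-456. In all 15 other settings no called miRNA changed sign. With every array of the 2 groups left out in turn, 12 of the 32 stayed called throughout, namely let-7c, let-7d, let-7g, let-7i, miR-16c, miR-25, miR-92a, miR-100, miR-130a, miR-205, miR-430a and miR-456.

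**Figure D5:**
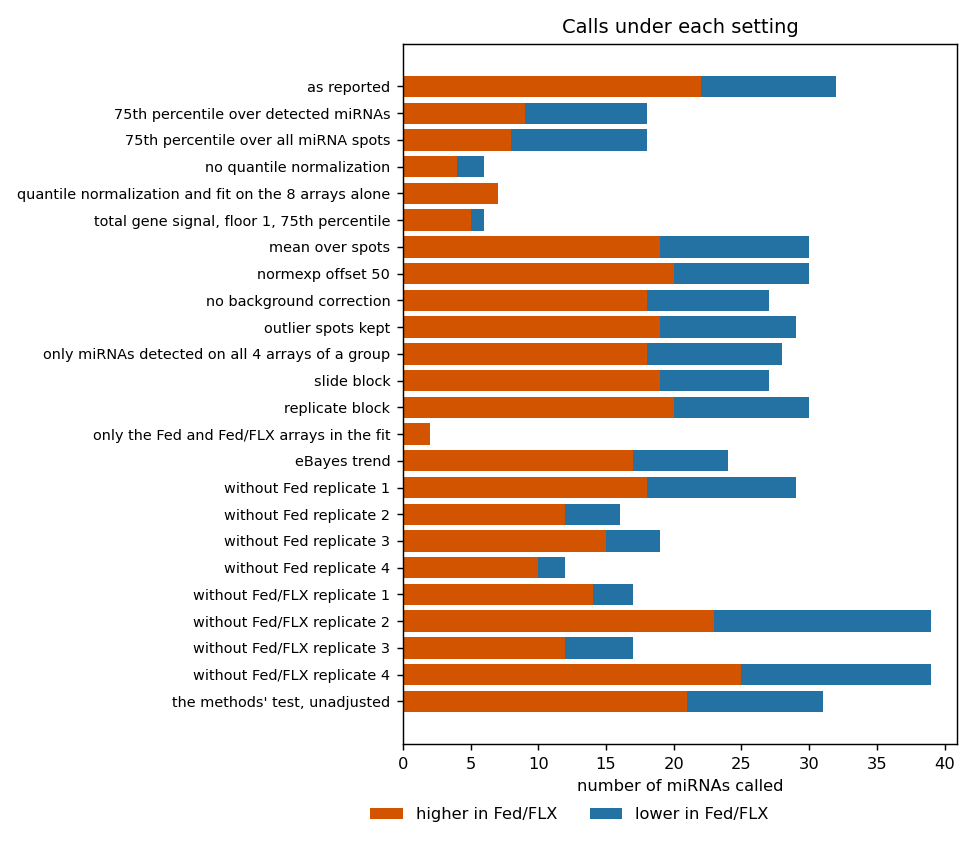
Number of miRNAs called in Fed/FLX against Fed (x axis) in each setting (y axis), split into higher (orange) and lower (blue); the call is an adjusted p under 0.05, except in the lowest bar, which is the methods' test without adjustment. The 32 calls as reported fall to 2 with only the 8 arrays in the fit and rise to 39 without Fed/FLX replicate 2 or 4.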

How the data were processed

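The authors deposited, for each of the 16 one-colour arrays, the output of the scanner software (Agilent Feature Extraction 11.0.1.1, per the labels), which lists for every spot an intensity after background subtraction, without normalization between arrays, and for every miRNA a total gene signal intensity. A further table that the authors deposited, with log2 values of 166 miRNAs, was not used here, because only 2 of its 16 columns match the scan of the sample in their heading. Which of the 2 assignments is right is not known here. The 14880 miRNA spots of 15595 on an array carried 60 spots for each of 248 miRNAs, and 0 were saturated.

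RMA values were computed in R 4.3.3 with limma 3.58.1 by normexp background correction (rma75) on all spots, removal of control and outlier spots, quantile normalization over the 16 arrays and median polish (at most 20 iterations). The methods name RMA in GeneSpring GX without settings. No miRNA was filtered out. Groups come from the labels. limma was fitted with 1 mean for each of the 4 groups, with Benjamini-Hochberg adjustment over 248 miRNAs in each comparison. Where a miRNA was detected in 1 group and on no array of the other, the fold is a lower bound: the brighter group's mean against, on each array of the other, the higher of its own value and that of the dimmest detected miRNA. The brighter group's mean can include arrays without detection, so that the bound is approximate. Arrays have no read depth, and 4 arrays per group limit the precision. The steps were run on simulated data with 2-fold changes in miRNAs detected on all 16 arrays. That run does not test smaller changes or miRNAs near background.

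The miRNAs named are those called and detected on all arrays of a group, the 3 largest differences in each direction among the other called ones, the 12 named in the text or supplement of the study, miR-122, and from each list its called members or its largest detected difference. Other uncalled members of a list or precursor are named as context, after their values were seen. Members and lists were chosen with earlier results of these data known. Gene positions are those of RefSeq, used for neighbours within 10 kb only, and 242 of 248 names matched. miRNA names are given without the prefix dre. Alternatives were 2 scalings to the 75th percentile, no quantile normalization, normalization of the 8 arrays alone, total gene signals with a floor of 1, the mean over spots, an offset of 50, no background correction, outlier spots kept, detected miRNAs only, slide or replicate number as a block, 2 groups in the fit, a variance trend, the methods' test and each array left out. Figures were drawn with matplotlib 3.10.9 in Python 3.11.15.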

Additional observations from a re-analysis of the deposited data

Results flagged for a closer look

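Among 68 sets of 4 arrays, 7 held an array far from the other three by Dixon's test, where chance gives about 1 in 20 for independent sets. These sets share arrays and the flagged miRNAs are all called ones, so that rate is only a rough guide. For let-7f and miR-128 the other arrays lay so close together that a small gap was flagged. In Fed, replicate 2 had let-7f at 8.34 (others 8.40 to 8.41), miR-125b at 7.39 (others 7.71 to 7.75) and 26.3% of its spots well above background (others 28.8% to 29.3%). On Fed replicate 4, miR-128 was at 2.62 (others 2.68 to 2.69), near background. In Fed/FLX, let-7g was 7.99 on replicate 2 (others 8.27 to 8.30), miR-456 was 4.75 on replicate 3 (others 4.88 to 4.89) and miR-99 was 5.12 on replicate 1 (others 4.68 to 4.71). For let-7g and miR-456 that array was the one nearest to Fed, and for miR-99 the one farthest from it.

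The FLX difference in fed fish departed from that in fasted fish, by limma's test of the interaction, for miR-181a-5p (1.23), miR-181c (0.91), miR-29a (-0.86) and miR-29b (-1.04).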

How the results depend on the processing

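The 32 calls became 18 with either 75th percentile scaling (16 and 15 of them shared with the 32), 6 without quantile normalization, 7 with normalization and fit on the 8 arrays alone, 6 on total gene signals and 2 with 2 groups in the fit. In both scalings, on total gene signals and without background correction, miRNAs at the floor on all arrays were left out, so that 125 to 141 were tested. In the other settings the count stayed between 24 and 31, the methods' test calling 31, of which 23 passed after Benjamini-Hochberg. With 1 array left out it ran from 12 to 39. The 1 miRNA past 2-fold became 5 and 3 with the scalings, 4 without background correction, 0 on the 8 arrays alone and 0 with 2 groups in the fit (in limma, each 1 at an unadjusted p under 0.05), with 1 to 3 when an array was left out. The 4 interactions became 0 without quantile normalization (31 at an unadjusted p under 0.05) and ran from 3 to 6 with an array left out. The difference in detected miRNAs was 2.33 to 9.67 with an array left out, 3.25 by the scanner software's mark and 2.5 at 75% of spots. The causes were not tested.

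The correlations of same-numbered deviations of Fed and Fed/FLX were 0.161, -0.057, -0.149 and -0.306, which show no pairing by replicate number but cannot exclude one. Fed and Fed/FLX arrays of the same number lay side by side on the same slide. With the replicate number as a block, limma called 30, of which 28 were among the 32, 1 past 2-fold and 5 interactions. Over the named called miRNAs, 456 of 712 values in other settings kept the call and 0 changed sign. Among named miRNAs not called, 9 of 337 values passed the test.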
